A study of Mus musculus with 18 samples.

Results

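A set of 50 listed genes of laminins, proteoglycans and matrix glycoproteins was followed through adherent neural stem cell (NSC) cultures and the astrocytes made from them. The members were taken by symbol from a list of matrix genes, with no threshold on their values but with earlier results of these data known, and make up 50 of the 27997 genes in the table. All 50 were found, 45 of them passed the filter on low values (3.32 on the log2 scale, or 10 on the linear scale, reached in 3 or more libraries), and 5 did not. Of the 45 tested, 37 were over that level in all 18 libraries, and 8 (Lama1, Lama2, Acan, Bgn, Lum, Thbs2, Spp1 and Vtn) only in some. A weak gene that entered the test only through the group where it is high had to differ, which bears on Lama1, Lama2, Acan, Lum and Vtn. Lama1 was over that level in all NSC libraries but in no EYFP or hippocampal astrocyte library.

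The cultures came from 3 mouse lines, each grown as NSCs and as astrocytes with 3 replicates per group. The tdTomato and EYFP lines were grown from spinal cord cells traced by DNGR-1 (Clec9a) expression, in mice labelled DNGR-1 +/- Tom+/- and DNGR-1 +/- EYFP+/-, in which a Cre under the control of Clec9a switches on the reporter for good. The hippocampal line, labelled DNGR-1+/+, was grown from mice that the study names as Glast-Cre, Huwe1 fl, Rosa LSL-EYFP, and whether Huwe1 was deleted in it is not stated in the sources used here, which bears on every difference from this line. NSCs were kept for 4 days with EGF and bFGF at 20 ng/ml, heparin at 5 µg/ml and laminin at 2 µg/ml, and astrocytes were collected on day 6 after culture with BMP4 at 20 ng/ml. The replicates of a line were different passages of it, so the p-values measure the spread between passages and not between animals. The traced lines differ from the hippocampal line in tissue of origin, tracing and genotype together, and from each other in reporter and line, so that within each comparison these cannot be told apart. Nor can BMP4, the withdrawn growth factors, heparin and laminin, and the day of collection in the change of fate.

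Extracellular matrix is built of secreted proteins and of proteoglycans, which carry long sulfated sugar chains. Laminins are trimers of an alpha, a beta and a gamma chain that form the sheet of a basement membrane with nidogens, perlecan and agrin. In the central nervous system much of the matrix between cells consists of lecticans bound to hyaluronan and tenascins, while thrombospondins, SPARC proteins and other matricellular glycoproteins act on cells more than they hold tissue together.

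Of the list of 6 astrocyte markers, 5 to 6 rose with the change to astrocytes in each line, where between 75.2% and 78.4% of all genes were called, and the mean log2 value of Gfap went from between 9.06 and 9.30 in NSCs to between 15.14 and 16.40 in astrocytes. The summed level of the 5 NSC and radial glia markers was 16.36 to 16.50 in NSCs and 16.44 to 17.88 in astrocytes, with Vim the highest of them in every group, and its members moved apart: 3, 3 and 2 rose and 2, 2 and 1 fell in tdTomato, EYFP and hippocampal cells. Nes, the gene of nestin, went from 14.27 to 11.09, from 13.9 to 10.86 and from 13.86 to 13.64 (the last with an adjusted p of 0.063), and Fabp7 from 14.26 to 13.76, from 14.71 to 14.3 and from 14.93 to 13.55. The 4 microglia and leukocyte markers in the table were under the filter in every group. Of the 7 fibroblast and meningeal markers, 3 or 4 were over the filter, with summed log2 levels of 8.63 to 9.74, and Col3a1 was at 6.15 in tdTomato NSCs against 1.93 in hippocampal NSCs. The 6 mural markers summed to between 7.21 and 9.26, of which 3 rose and 2 fell in every line. Group means of Rgs5 and Kcnj8 were 5.83 to 7.56 in astrocytes against 2.06 to 3.03 in NSCs, those of Acta2 and Myl9 were 3.11 to 7.39 against 5.04 to 8.57, and that of Pdgfrb was below 0 in every group. The 4 ependymal markers in the table summed to 9.45 to 10.5 in NSCs and 11.01 to 12.32 in astrocytes, the 6 oligodendrocyte lineage markers to 7.62 to 8.51 and 8.46 to 10.43, the 5 neuron markers to 7.24 to 8.13 and 8.31 to 8.79, and the 4 endothelial markers in the table to 3.7 to 5.7 over both fates. The part of these other genes in the matrix values was not tested. In bulk RNA, fewer cells of one kind and less RNA per cell cannot be told apart.

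Fmod and Vtn are shown with the 300 bases around their RefSeq gene starts (build GRCm38.p6, 250 bases before to 50 after), because one rose in all 3 lines and the other mainly in the hippocampal line. Fmod lies on chromosome 1 from 134037254 to 134048277, and its window was chr1:134037004-134037303 on the plus strand. Vtn lies on chromosome 11 from 78499091 to 78502324, and its window was chr11:78498870-78499169 on the plus strand. Capitals mark a stretch that holds the TATA box letters TATAAA on one strand or the other, and the STAT letters TTCNNNGAA.
Fmod: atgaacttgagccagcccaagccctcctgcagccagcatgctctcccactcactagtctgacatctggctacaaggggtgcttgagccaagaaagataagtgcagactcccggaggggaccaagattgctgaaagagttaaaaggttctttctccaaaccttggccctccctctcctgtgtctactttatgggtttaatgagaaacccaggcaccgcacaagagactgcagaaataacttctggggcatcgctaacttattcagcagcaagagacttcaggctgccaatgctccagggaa
Vtn: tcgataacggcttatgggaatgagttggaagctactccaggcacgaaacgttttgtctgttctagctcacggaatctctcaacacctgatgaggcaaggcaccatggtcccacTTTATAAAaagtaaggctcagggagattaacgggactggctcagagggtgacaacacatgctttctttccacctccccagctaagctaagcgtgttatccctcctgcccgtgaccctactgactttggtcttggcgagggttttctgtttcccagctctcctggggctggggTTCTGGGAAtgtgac
The Fmod window held none of the 4 motifs searched on both strands. Promoter windows were found for 35 of the 50 members. For each, the 1 window nearest the annotated gene start was taken, with its own start up to 3103 bases away (Sparc). The windows of all genes were counted without taking 1 per gene. The GC-rich palindrome GGCGCC bound by SMAD1 and SMAD5 stood in 6 of the 35 (17.1%, against 11.9% of all 32851 promoter windows), TATAAA in 7 (20.0% against 13.6%), the STAT letters in 2 (5.7% against 8.3%) and the AP-1 letters TGANTCA in 2 (5.7% against 7.8%). These are matches of letters, not sites shown to be bound.

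The first question was how the matrix genes changed from NSC to astrocyte in each line. In the tdTomato line 15 of the 45 members were higher in astrocytes and 25 lower at an adjusted p under 0.05, so that 40 were called where 78.4% of all genes tested were. In the EYFP line 17 were higher and 26 lower, against 75.2% of all genes called, and in the hippocampal line 17 were higher and 20 lower, against 76.3%. The median SD between replicates was 0.147 for the members and 0.103 over all genes tested. The shares past 2-fold were further from those of all genes than the shares called were. In tdTomato, 13 members rose and 15 fell at least 2-fold, which 15.4% and 11.4% of all genes did. In EYFP, 13 rose and 19 fell at least 2-fold (14.0% and 10.5% of all genes), and in the hippocampal line 13 rose and 13 fell (15.4% and 10.2%). The median absolute log2 change of the members was 1.25, 1.38 and 1.37 in the tdTomato, EYFP and hippocampal lines, against 0.55, 0.49 and 0.51 over all genes tested. In total, 12 members rose in all 3 lines (28.1% of all genes did), 18 fell in all 3 (27.8%), and 3, Nid2, Matn2 and Fbln1, were called in opposite directions in different lines (5.64%).

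**Figure D1:**
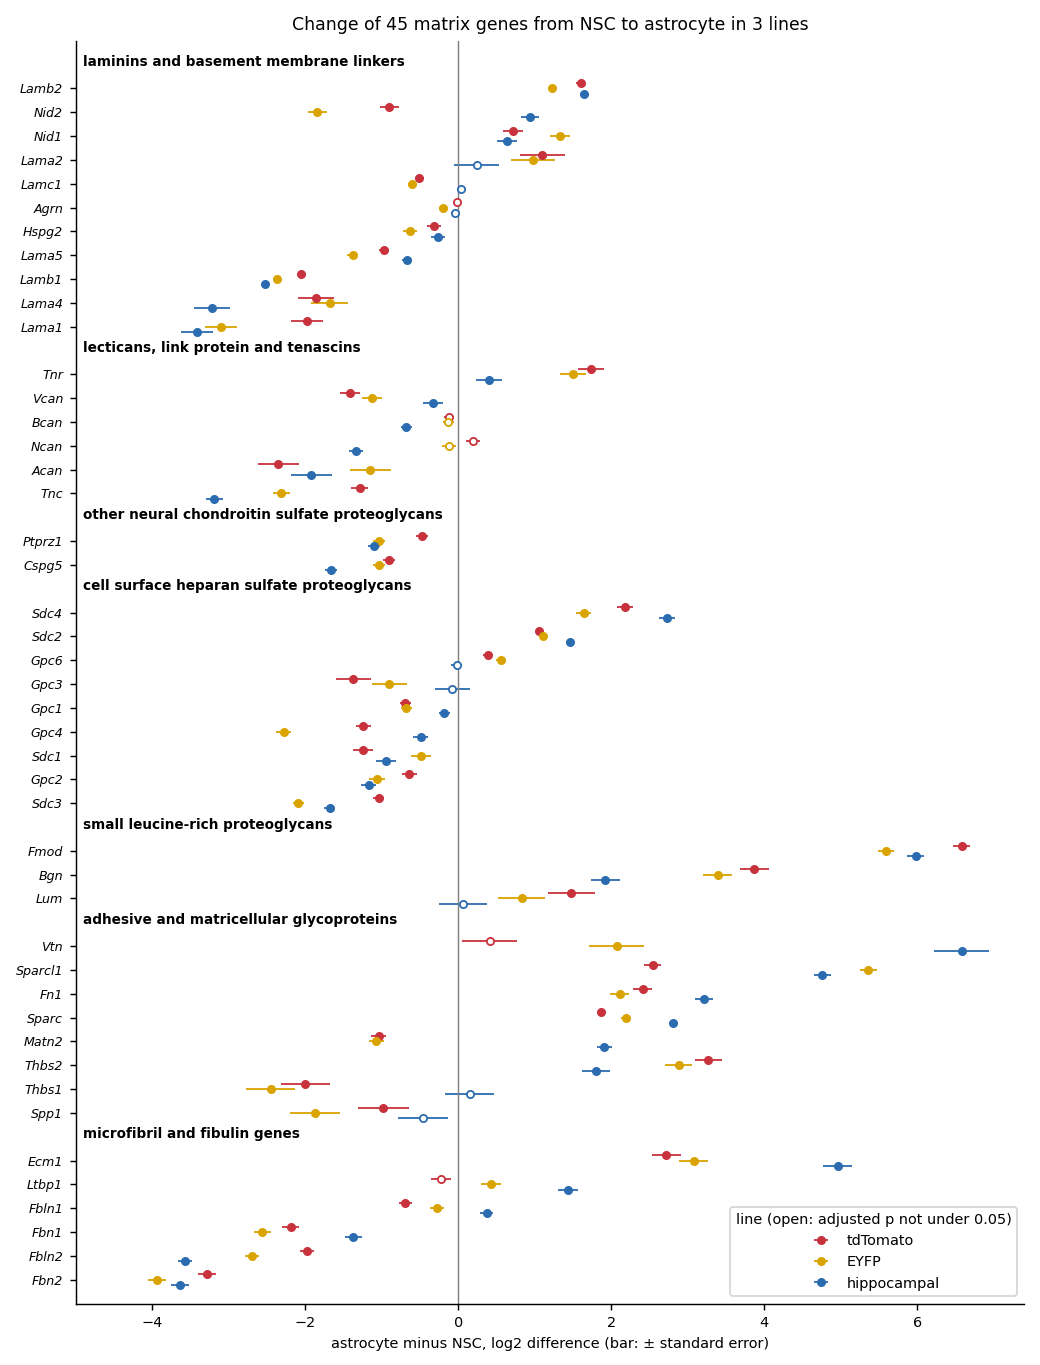
Log2 difference between astrocytes and NSCs (x axis) for the 45 members tested, grouped by role, with 1 point per line and bars of ± 1 standard error. Filled points passed an adjusted p under 0.05. Fmod lies between 5.59 and 6.58 in all 3 lines, while Vtn runs from 0.41 in tdTomato to 6.58 in the hippocampal line.

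**Figure D2:**
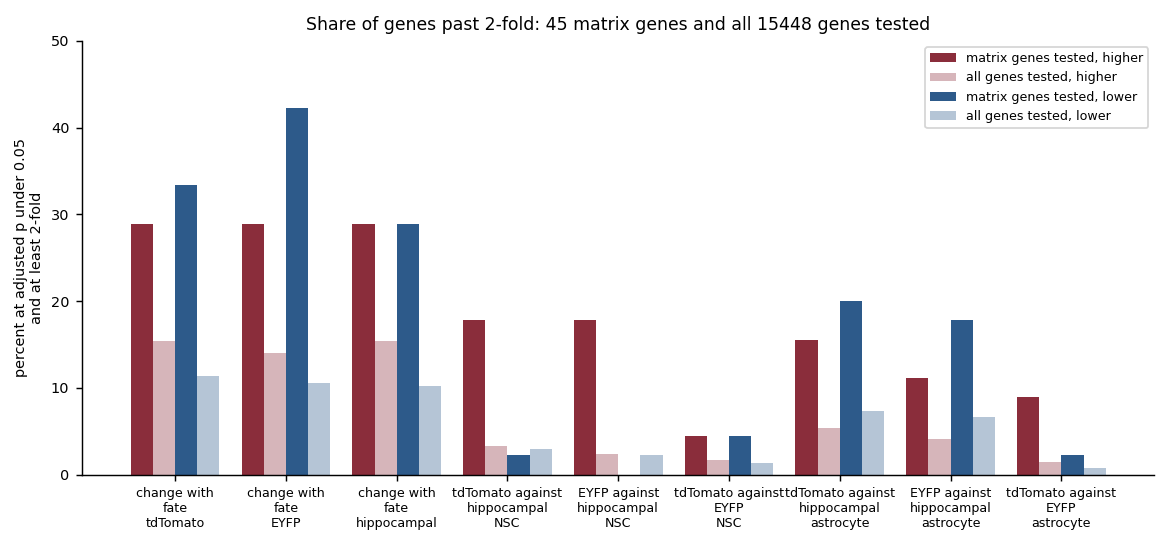
Percent of the 45 members tested and of all 15448 genes tested that passed an adjusted p under 0.05 and a 2-fold difference, higher or lower, in the 3 changes with fate and the 6 line differences. The darker bars of the members exceed the paler bars of all genes except for lower genes in NSCs of both traced lines against the hippocampal line, where 1 and 0 members passed.

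Among laminin chains and their linkers, the 2 beta chains moved in opposite directions in every line. Of the 11 genes, 7, 8 and 5 fell and 3 rose in tdTomato, EYFP and hippocampal cells. The background of this and the other counts by role is the 78.4%, 75.2% and 76.3% of all genes called in these lines, so a count of called genes near it is no result about the role. Lamb1, the beta-1 chain, stood at 11.25, 11.17 and 11.12 in the tdTomato NSC libraries and at 9.09, 9.14 and 9.16 in the astrocytes. It fell by 2.05 in tdTomato (standard error 0.05, adjusted p = 5.5e-17), by 2.37 in EYFP and by 2.52 in hippocampal cells, with no overlap between the fates in any line. Lamb2, the beta-2 chain, moved the other way, by 1.6, 1.23 and 1.65, from 10.91 to 11.54 over the 9 NSC libraries to 12.56 to 13.17 over the 9 astrocyte libraries. Lamc1, the gamma-1 chain that most laminins contain, changed little: it fell by 0.51 and 0.60 in the traced lines and differed by 0.04 (adjusted p = 0.56) in the hippocampal line.

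Of the alpha chains, which carry the main cell-binding domains, Lama1, Lama4 and Lama5 fell in every line. Lama5 was the most abundant, at 12.04 to 12.69 in NSCs and 11.08 to 11.67 in astrocytes, a fall of 0.97, 1.38 and 0.67 in the 3 lines. Lama4 fell most in hippocampal cells, from 8.10, 7.94 and 7.78 to 5.46, 4.59 and 4.10, a log2 change of -3.22 (standard error 0.24). Lama1 fell from 6.33, 5.95 and 6.02 to 3.12, 2.57 and 3.30 in EYFP cells, and from 6.06, 5.79 and 6.02 to 2.65, 2.65 and 2.32 in hippocampal cells. These are log2 changes of -3.10 and -3.42. The astrocyte values lie under the filter, so in these lines Lama1 passed it only through the NSCs, where it is high. The size of these falls also depends on how weak values are treated. With a pseudocount of 10 they were -2.12 and -2.19. Lama2 was near or under the filter everywhere (1.80 to 3.45) and passed it in 4 libraries, all of astrocytes, so that it was tested only through the fate where it is high. It had log2 changes of 1.1 and 0.98 in tdTomato and EYFP cells and 0.24 (adjusted p = 0.47) in hippocampal cells.

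Among the linkers, Nid1 rose by 0.72, 1.33 and 0.64, while Nid2, its paralog, changed by -0.9 and -1.84 in the traced lines and rose by 0.94 in the hippocampal line. The Nid2 libraries showed this without overlap: 9.29, 9.17 and 9.03 became 8.46, 8.22 and 8.11 in tdTomato cells, 9.70, 9.70 and 9.78 became 8.01, 7.86 and 7.79 in EYFP cells, and 8.70, 8.52 and 8.54 became 9.82, 9.21 and 9.53 in hippocampal cells. Of its 75-base stretches, 7.0% occur in another annotated gene. Hspg2, the gene of perlecan, fell by 0.32, 0.63 and 0.26. Agrn, the gene of agrin, lay between 13.31 and 13.72 in all libraries and was called only in EYFP, at -0.20.

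**Figure D3:**
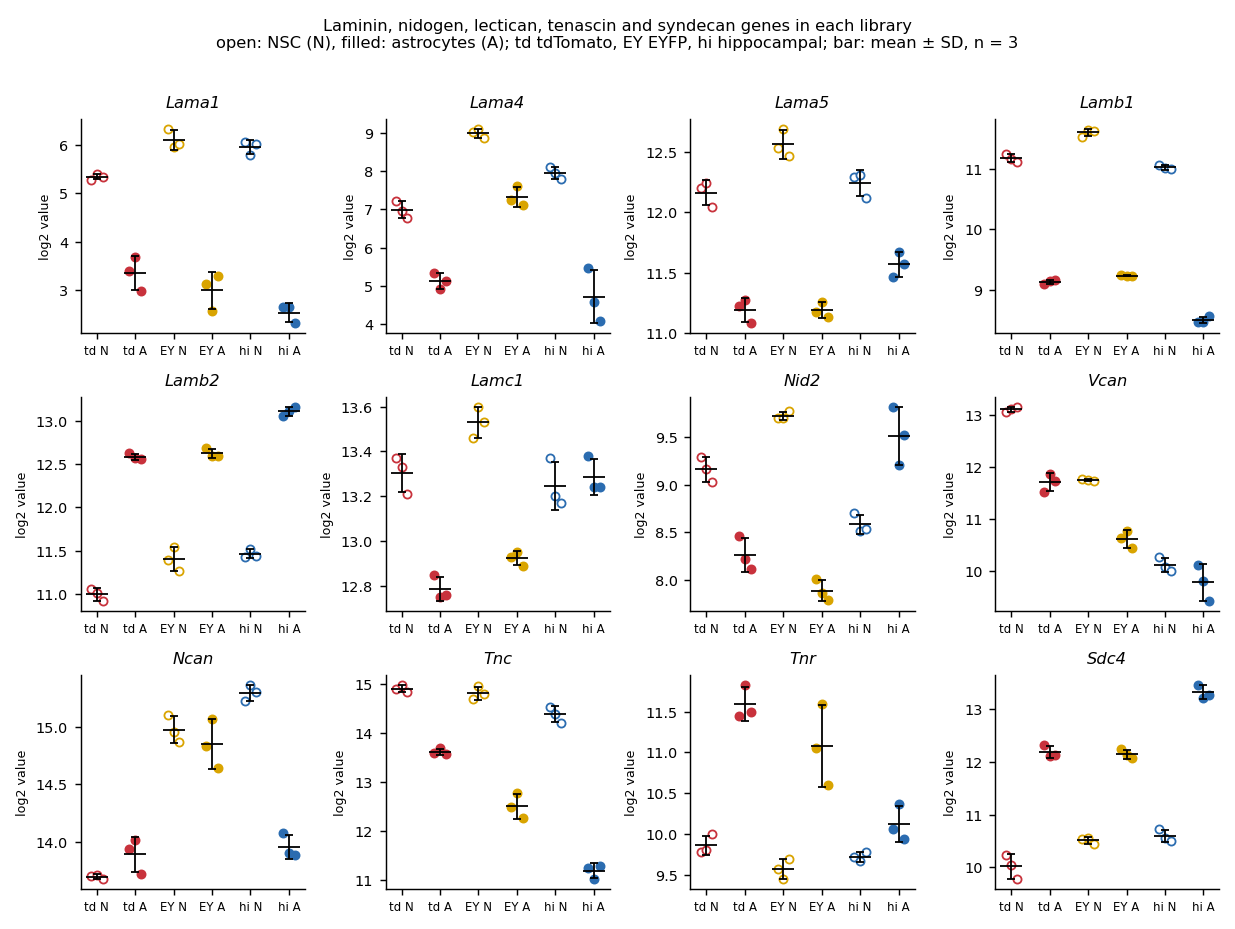
Log2 values of 12 laminin, nidogen, lectican, tenascin and syndecan genes in each of the 18 libraries, open for NSCs and filled for astrocytes, with the mean and SD of the 3 replicates. Lamb1 and Lamb2 move in opposite directions in every line, and the Nid2 points of the hippocampal line rise where those of the traced lines fall.

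The neural lecticans and tenascins held some of the highest genes of the list, and the 2 tenascins changed in opposite directions. Per kilobase of exon, Bcan (brevican) and Tnc, with Sdc3 and Ptprz1 of other roles, had mean log2 levels of 11.38 to 12.46 in the NSC groups. Those of Ncan were 10.86, 12.13 and 12.45 in tdTomato, EYFP and hippocampal NSCs. Tnc, the gene of tenascin-C of germinal zones, went from 14.53, 14.39 and 14.20 to 11.25, 11.01 and 11.29 in hippocampal cells, a log2 change of -3.19 (standard error 0.11). Its change was -2.31 in EYFP and -1.29 in tdTomato cells. Tnr, the gene of tenascin-R of mature neural matrix, rose by 1.73, 1.5 and 0.4, the last with an adjusted p of 0.046. Vcan (versican) fell by 1.41 and 1.13 in the traced lines and by 0.33 in the hippocampal line, where the fates overlapped.

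Ncan, the gene of neurocan, and Bcan were called only in the hippocampal line, where they fell by 1.34 and 0.68. Their changes in the traced lines lay between -0.13 and 0.19, with adjusted p values of 0.071 to 0.24. Acan (aggrecan) was over the filter in 5 libraries only: in tdTomato cells it went from 4.10, 4.02 and 3.39 to 1.38, 1.69 and 1.38, a log2 change of -2.35 that was -0.93 with a pseudocount of 10. Ptprz1, a receptor phosphatase with chondroitin sulfate chains, fell by 0.47, 1.04 and 1.10, and Cspg5 (neuroglycan C) had log2 changes of -0.9, -1.04 and -1.66.

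The cell surface heparan sulfate proteoglycans split by member, and of the 9 tested 6, 6 and 5 fell and 3, 3 and 2 rose in tdTomato, EYFP and hippocampal cells (78.4%, 75.2% and 76.3% of all genes called). Syndecans are single-pass membrane proteins, and of the 4, Sdc4 and Sdc2 rose and Sdc1 and Sdc3 fell in every line. Sdc4, found at focal adhesions, went from 10.73, 10.55 and 10.50 to 13.47, 13.22 and 13.27 in hippocampal cells (a log2 change of 2.73) and changed by 2.18 and 1.64 in tdTomato and EYFP cells. Sdc3, a syndecan of neural tissue, fell by 1.04, 2.09 and 1.68. Glypicans are held at the membrane by a lipid anchor. Gpc4 fell by 1.24, 2.28 and 0.49, Gpc3 was called in the traced lines only, with log2 changes of -1.37 and -0.9 (-0.08, adjusted p = 0.75, in the hippocampal line), and Gpc6 rose by 0.39 and 0.56 in the traced lines. Gpc1 and Gpc2 fell in all 3 lines by 0.18 to 1.17, but 17.5% and 46.8% of their 75-base stretches also occur in other annotated genes, so that their values are uncertain.

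The small leucine-rich proteoglycans, which bind collagen fibrils and growth factors, held the largest rise of the list in the traced lines and the second largest in the hippocampal line. The largest there was that of Vtn, 6.58, which became 4.83 with a pseudocount of 10. Fmod (fibromodulin) stood at 4.51, 4.50 and 4.30 in tdTomato NSCs, at 4.91, 4.70 and 4.58 in EYFP NSCs and at 4.71, 4.53 and 4.40 in hippocampal NSCs. In astrocytes it stood at 11.21, 10.90 and 10.94, at 10.31, 10.51 and 10.14, and at 10.56, 10.49 and 10.53 in the same order of lines. The fates lay far apart in each line. The log2 changes were 6.58, 5.59 and 5.98 with a standard error of 0.11, or 95.5-fold, 48.3-fold and 63.2-fold. Bgn (biglycan) rose by 3.87 in tdTomato cells (4.05, 3.88 and 3.54 to 7.64, 7.80 and 7.64), by 3.39 in EYFP cells (3.96, 3.70 and 3.59 to 7.12, 7.40 and 6.90) and by 1.92 in hippocampal cells (3.41, 3.11 and 3.37 to 5.61, 4.98 and 5.05). With a pseudocount of 10 the first 2 of these changes were 3.16 and 2.69. Lum (lumican) was weak, and rose by 1.48 and 0.83 in the traced lines while lying between 1.49 and 1.58 in all hippocampal libraries. Dcn (decorin) was under the filter in all libraries, with its highest values, 2.34 to 2.57, in tdTomato astrocytes.

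Among the adhesive and matricellular glycoproteins, 4, 5 and 6 of the 8 tested rose and 3, 3 and 0 fell in the tdTomato, EYFP and hippocampal lines (78.4%, 75.2% and 76.3% of all genes called). Sparcl1 (hevin), an astrocyte protein that acts on synapses, had the highest astrocyte level of the list per kilobase of exon, with mean log2 levels of 14.26, 14.95 and 14.66. Its log2 values rose from 11.05, 11.24 and 11.14 to 16.39, 16.37 and 16.76 in EYFP cells and from 11.35, 11.54 and 11.49 to 16.12, 16.31 and 16.23 in hippocampal cells, by 5.36 and 4.76. In tdTomato cells it began higher, at 13.07, 13.42 and 13.33, reached 15.74, 15.67 and 16.04, and so rose by 2.54. Sparc, its paralog, rose by 1.87, 2.19 and 2.81 and had the second highest astrocyte level, at 13.35 to 13.98 per kilobase.

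Fn1 (fibronectin) rose by 2.41, 2.11 and 3.21, in hippocampal cells from 11.70, 11.48 and 11.65 to 14.98, 14.70 and 14.78. The 2 thrombospondins tested, which are glycoproteins with roles in synapse formation, moved apart. Thbs2 rose from 4.16, 3.29 and 3.80 to 7.13, 6.81 and 7.13 in tdTomato cells and from 3.86, 3.75 and 4.05 to 6.71, 6.71 and 6.88 in EYFP cells (log2 changes of 3.27 and 2.88, or 2.57 and 2.26 with a pseudocount of 10), and by 1.80 in hippocampal cells. Thbs1 fell from 7.91, 7.41 and 7.04 to 5.56, 5.81 and 5.00 in tdTomato cells and from 8.82, 8.17 and 7.28 to 5.69, 5.97 and 5.26 in EYFP cells, while in hippocampal cells it lay between 6.74 and 7.54 in NSCs and 7.18 and 7.46 in astrocytes (0.15, adjusted p = 0.68).

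Vtn (vitronectin), an adhesive plasma protein, showed the widest gap between lines. In hippocampal cells it went from 1.86, 2.14 and 2.10 to 8.79, 8.07 and 8.99, a log2 change of 6.58 (standard error 0.36). In EYFP cells it went from 1.44, 1.42 and 1.48 to 3.73, 4.02 and 2.82, a log2 change of 2.07 (adjusted p = 4.7e-05), and in tdTomato cells from 1.84, 2.33 and 2.14 to 3.19, 2.78 and 1.56, where the fates overlapped (0.41, adjusted p = 0.31). All NSC values lie under the filter, so the size of the hippocampal rise depends on how weak values are treated, and it was 4.83 with a pseudocount of 10. Matn2 (matrilin-2) rose by 1.91 in hippocampal cells (9.49, 9.41 and 9.40 to 11.52, 11.37 and 11.15) and fell by 1.04 and 1.07 in the traced lines (9.32 to 10.21 over their NSC libraries, 8.35 to 9.14 over their astrocytes). Spp1 (osteopontin) fell by 0.98 and 1.87 in the traced lines, and 8.5% of its 75-base stretches occur in another annotated gene.

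**Figure D4:**
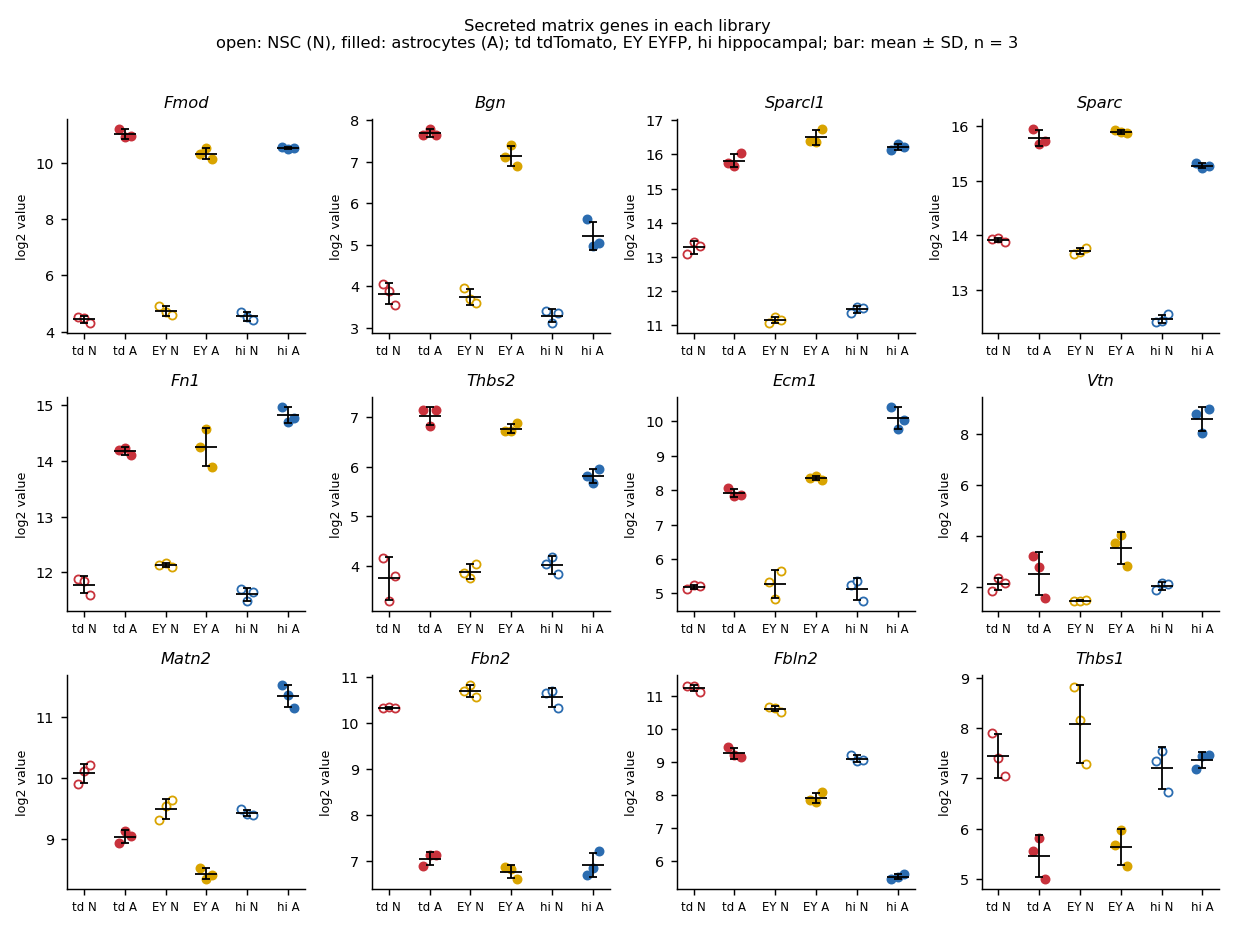
Log2 values of 12 secreted matrix genes in each of the 18 libraries, open for NSCs and filled for astrocytes, with the mean and SD of the 3 replicates. Fmod and Sparcl1 separate the fates in all lines, Vtn and Matn2 are highest in hippocampal astrocytes, and Thbs1 falls in the traced lines only.

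Both fibrillins and Fbln2 fell in every line, and Ecm1 rose. Ecm1 was counted in the group of microfibril and fibulin genes. Of the 6 genes tested in it, 4, 4 and 3 fell and 1, 2 and 3 rose in tdTomato, EYFP and hippocampal cells. Of all genes, 78.4%, 75.2% and 76.3% were called. The 1 that rose in tdTomato cells was Ecm1. Fbn2, the gene of the fibrillin of early development, went from 10.32, 10.35 and 10.32 to 6.89, 7.14 and 7.12 in tdTomato cells, from 10.69, 10.84 and 10.58 to 6.87, 6.82 and 6.60 in EYFP cells and from 10.66, 10.69 and 10.33 to 6.69, 6.85 and 7.21 in hippocampal cells. Its log2 changes of -3.28, -3.94 and -3.64 were the largest falls of the list in each line. Fbn1 fell by 2.19 in tdTomato cells (9.58, 9.77 and 9.65 to 7.59, 7.42 and 7.42), by 2.56 in EYFP cells (9.75, 9.97 and 9.70 to 7.30, 7.25 and 7.20) and by 1.37 in hippocampal cells. For this gene 19.6% of the 75-base stretches occur in another annotated gene. Fbln2 (fibulin-2) fell from 10.66, 10.62 and 10.51 to 7.84, 7.77 and 8.07 in EYFP cells and from 9.20, 9.01 and 9.06 to 5.44, 5.52 and 5.61 in hippocampal cells (-2.70 and -3.57), and by 1.98 in tdTomato cells. Fbln1 fell by 0.69 and 0.28 in the traced lines and rose by 0.37 in the hippocampal line. Ltbp1, which stores latent TGF-beta in matrix, rose by 0.43 in EYFP and 1.43 in hippocampal cells and differed by -0.23 (adjusted p = 0.12) in tdTomato cells.

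Ecm1, a secreted glycoprotein of skin and cartilage matrix, rose from 5.13, 5.24 and 5.21 to 8.05, 7.82 and 7.87 in tdTomato cells, from 5.34, 4.85 and 5.65 to 8.36, 8.41 and 8.31 in EYFP cells and from 5.24, 5.36 and 4.77 to 10.43, 9.79 and 10.04 in hippocampal cells. These are log2 changes of 2.72, 3.08 and 4.96. The other 4 untested members stayed low in all libraries: Hapln1, the link protein of hyaluronan, lay between -0.12 and 1.07, Gpc5 between 1.21 and 3.36, Thbs4 between -0.44 and 1.3, and Efemp1 between -1.09 and -0.08.

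The second question was how the lines differed within a fate. The comparisons share libraries, so each one is given on its own. In NSCs, 16 members were higher and 12 lower in tdTomato than in hippocampal cells (37.2% of all genes were called), 8 and 1 of them at least 2-fold (3.27% and 2.95% of all genes). Of the calls, 57.1% of the members' and 53.4% of all genes' were higher in tdTomato, which median centring of the libraries moved to 55.6% and 43.2%. In EYFP against hippocampal NSCs, 19 were higher and 5 lower (25.8% of all genes called), 8 and 0 at least 2-fold (2.36% and 2.25%). Between tdTomato and EYFP NSCs, 9 were higher and 16 lower in tdTomato (31.4% of all genes called), 2 in each direction at least 2-fold (1.66% and 1.34%).

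Vcan was higher in the NSCs of both traced lines. Its libraries stood at 13.07, 13.12 and 13.17 in tdTomato, 11.77, 11.75 and 11.73 in EYFP and 10.27, 10.08 and 10.01 in hippocampal NSCs. The log2 differences from the hippocampal line were 3.00 and 1.63, and that between the traced lines 1.38, all with a standard error of 0.13. Fbln2 had the same order, with 11.30, 11.28 and 11.12 in tdTomato NSCs, and its differences from the hippocampal line were 2.14 and 1.5. Fbn1 was higher in EYFP and tdTomato than in hippocampal NSCs (8.17, 8.14 and 7.76) by 1.78 and 1.64, Sparc by 1.25 and 1.46, and Fbln1 by 1.21 and 1.29. The 3 groups did not overlap for Vcan and Fbln2. Some markers also differed between these groups: in tdTomato, EYFP and hippocampal NSCs Col3a1 was at 6.15, 2.95 and 1.93. Acta2 was at 6.43, 6.97 and 5.04 and Myl9 at 8.09, 8.57 and 6.82, both highest in EYFP. Pdgfra, of the fibroblast list, ran the other way, at 6.77, 7.36 and 7.81. Of the 5 mural markers tested 2 were higher and 0 lower in each traced line (37.2% and 25.8% of all genes called). The mural list summed to 8.03 to 9.26, 8.84 to 9.14 and 7.21 to 7.59. Of the 4 fibroblast markers tested 1 was higher in each and 2 and 0 were lower. That list summed to 9.0 to 9.16, 9.09 to 9.24 and 9.31 to 9.41. Of the 6 astrocyte markers 0 and 1 were higher and 4 and 3 lower. The part of these markers in the differences was not tested.

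Other genes set one traced line apart from the other. Ncan was lower in tdTomato NSCs (13.71, 13.72 and 13.68) than in EYFP (15.10, 14.95 and 14.87) and hippocampal NSCs (15.22, 15.36 and 15.30), by 1.27 and 1.59. Sparcl1, with the values given above, was higher in tdTomato NSCs by 2.13 and 1.81. Lama4 was lowest in tdTomato NSCs (7.23, 6.96 and 6.78) and highest in EYFP NSCs (9.02, 9.09 and 8.86), differing by -0.95 and 1.05 from the hippocampal line and by -2.0 between the traced lines. Lama1 was lower in tdTomato (5.28, 5.39 and 5.34) than in EYFP NSCs by 0.77, and Acan higher by 0.83 (EYFP NSCs at 3.08, 3.11 and 2.81). Both rest on weak values, and the call of Acan was lost without any one of 5 libraries (adjusted p of 0.053 to 0.10) and that of Lama1 without EYFP NSC replicate 1 (-0.65, adjusted p = 0.053). In tdTomato against EYFP NSCs, 1 of the 6 astrocyte markers was higher and 4 were lower (31.4% of all genes called). Of the 5 NSC and radial glia markers 1 was higher and 3 were lower. The part of these markers in the differences was not tested.

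The other deficits against hippocampal NSCs named by the rule were under 2-fold. Gpc4 was lower in tdTomato NSCs (9.87, 9.51 and 9.43, against 10.52, 10.39 and 10.36) by 0.82. In EYFP NSCs Ltbp1 was lower by 0.96 (6.46, 6.52 and 6.53, against 7.44, 7.42 and 7.52), Sdc1, the epithelial syndecan, by 0.50 (9.15, 9.07 and 9.47, against 9.77, 9.53 and 9.86) and Cspg5 by 0.34 (13.09, 13.11 and 12.81, against 13.25, 13.48 and 13.29). None of these groups overlapped, although the gap between the nearest libraries of the groups was narrower than the spread within a group for Sdc1 and Cspg5.

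The counts in astrocytes moved as those of all genes did: against the hippocampal line more were called than in NSCs, and between the traced lines fewer. In tdTomato against hippocampal astrocytes 19 were higher and 14 lower (58.2% of all genes called), 7 and 9 at least 2-fold (5.35% and 7.37%). In EYFP against hippocampal astrocytes 18 were higher and 14 lower (51.6% of all genes called), 5 and 8 at least 2-fold (4.16% and 6.62%). Between the astrocytes of the traced lines, 10 were higher and 6 lower in tdTomato (14.4% of all genes called), 4 and 1 at least 2-fold (1.43% and 0.816%).

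Fbln2 stood at 9.43, 9.19 and 9.13 in tdTomato, 7.84, 7.77 and 8.07 in EYFP and 5.44, 5.52 and 5.61 in hippocampal astrocytes. Its differences from the hippocampal line were 3.73 and 2.37, or 13.3-fold and 5.18-fold, and that between the traced lines was 1.36. Lum was at 4.02, 4.63 and 4.74 in tdTomato and 3.69, 4.02 and 3.65 in EYFP astrocytes against 1.57, 1.58 and 1.52 in hippocampal ones, where it was under the filter. The differences of 2.90 and 2.23 were 1.32 and 0.88 with a pseudocount of 10. Col3a1, one of the fibroblast markers, was at 3.89, 1.56 and 1.62 in tdTomato, EYFP and hippocampal astrocytes, and its list summed to 8.9 to 9.02, 8.63 to 8.69 and 9.61 to 9.74. Its part in the Lum values was not tested. Bgn was higher in the traced astrocytes by 2.48 and 1.93, Thbs2 by 1.20 and 0.95 and Tnc by 2.42 and 1.31.

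Hippocampal astrocytes were higher in Vtn, by 6.10 over tdTomato and 5.09 over EYFP astrocytes (68.8-fold and 34.1-fold), and in Matn2 by 2.30 and 2.91. Vtn was under the filter in all 3 tdTomato astrocyte libraries and in 1 of the 3 EYFP ones, so these folds are fitted values and no bounds, and with a pseudocount of 10 its differences were -4.64 and -4.2. Ltbp1 stood at 9.15, 8.91 and 8.62 in hippocampal, 6.86, 6.74 and 6.34 in tdTomato and 7.03, 6.97 and 6.78 in EYFP astrocytes, differences of -2.24 and -1.96. Ecm1 was lower in the traced astrocytes by 2.17 and 1.73, Gpc4 by 1.57 and 1.91 and Sdc4 by 1.13 and 1.17. The groups did not overlap for any of these genes. Markers differed between the same groups: in tdTomato, EYFP and hippocampal astrocytes Aldh1l1 was at 6.96, 7.0 and 10.28 and the ependymal gene Ccdc153 at 2.92, 2.71 and 5.86. All 3 ependymal markers tested were lower in both traced lines, with summed levels of 11.01 to 11.36, 11.1 to 11.26 and 12.16 to 12.32, and of the 6 astrocyte markers 4 and 3 were lower and 2 higher in each. Their part in these differences was not tested.

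Between the traced lines, Lama4 kept its order in astrocytes, with 5.33, 4.91 and 5.13 in tdTomato and 7.24, 7.60 and 7.11 in EYFP, a difference of -2.19 (standard error 0.24), and EYFP exceeded hippocampal astrocytes by 2.60. Vcan was higher in tdTomato (11.53, 11.87 and 11.74) than in EYFP astrocytes (10.64, 10.78 and 10.44) by 1.09, and Tnc (13.58, 13.68 and 13.56, against 12.48, 12.76 and 12.25) by 1.11. Ncan was lower by 0.95 (13.94, 14.02 and 13.73, against 14.83, 15.07 and 14.64), and Sparcl1, which was higher in tdTomato as NSCs, was lower by 0.69 as astrocytes.

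**Figure D5:**
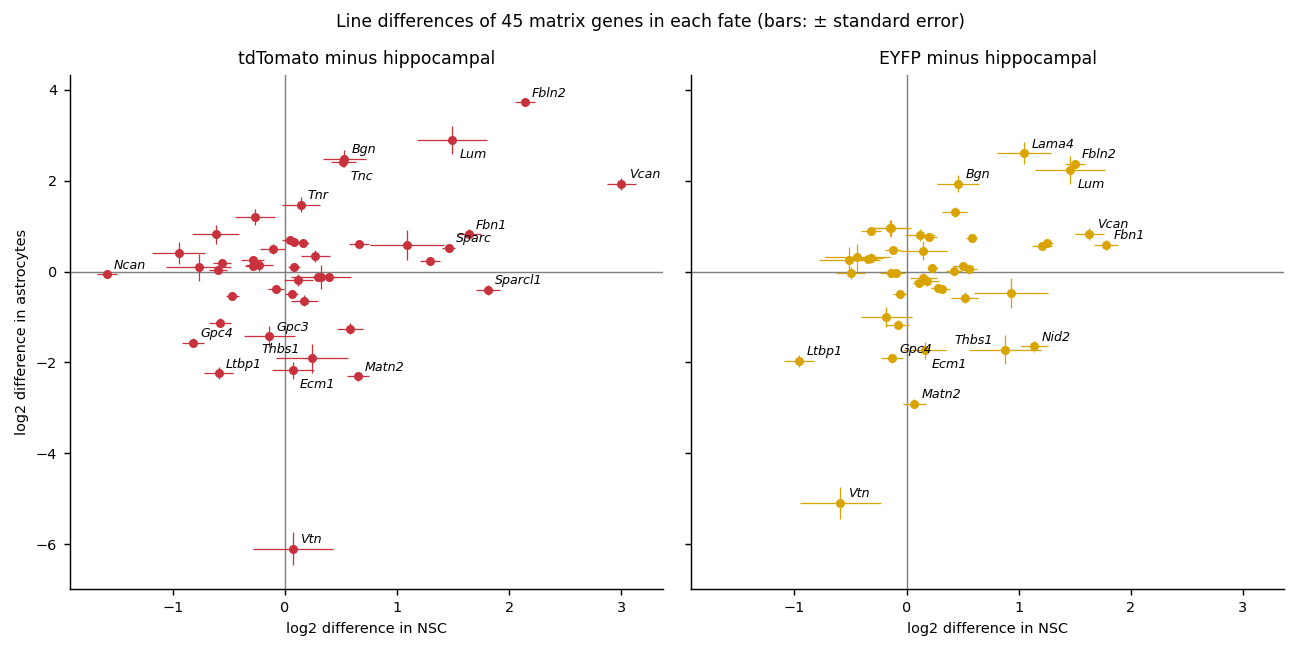
Log2 difference of tdTomato (left) and EYFP (right) from hippocampal cells in NSCs (x axis) and in astrocytes (y axis) for the 45 members tested, with bars of ± 1 standard error. Both panels share the hippocampal libraries. Fbln2, Lum and Vcan lie at the upper right, Vtn at the bottom, and Ltbp1 at the lower left.

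The third question was whether a gene changed by different amounts in different lines, tested as an interaction. Between tdTomato and hippocampal cells the change differed for 36 of the 45 members (45.3% of all genes), for 19 at least 2-fold (11.9%). Of these calls 47.2% of the members' and 42.9% of all genes' were positive, and 50% and 56.6% after median centring. Between EYFP and hippocampal cells it differed for 33 (38.0%), for 16 at least 2-fold (9.55%), with positive shares of 36.4% and 44.7% that became 41.2% and 55.1% after median centring. Between the traced lines it differed for 21 (13.3%), for 7 at least 2-fold (2.40%). The last count fell to 3 without tdTomato astrocyte replicate 2 and to 4 without tdTomato NSC replicate 3, EYFP NSC replicate 1 or EYFP NSC replicate 2, and to 4 with a pseudocount of 10. The values of the single genes with the largest differences, among them Vtn, Matn2, Nid2, Sparcl1 and Bgn, are given in the closing section.

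Matrix works through receptors and through enzymes that build its sugar chains, and these were counted beside the members. Of 21 receptor genes, 19 were tested, and 10, 9 and 9 rose while 6, 7 and 6 fell with the change to astrocytes in tdTomato, EYFP and hippocampal cells. Of all genes tested 78.4%, 75.2% and 76.3% were called in these contrasts, which is the background for this list and the next lists. Itga3, an integrin chain that binds laminins, rose by 1.26, 1.98 and 4.46, and Itga7, another, by 0.93, 1.27 and 3.10. Itgb4, the beta chain that pairs with Itga6 on laminin, was called only in the hippocampal line, at 3.92, and Cd44, the hyaluronan receptor, rose by 1.08, 1.58 and 2.56. Itga4, whose integrin binds fibronectin, fell by 3.87, 3.53 and 3.40, and Itga9, whose integrin binds tenascin-C, by 2.91, 1.82 and 0.37.

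Of 32 genes for sugar chain synthesis, 31 were tested, and 9, 10 and 9 rose while 15, 16 and 17 fell. Hs6st2, which adds sulfate to heparan chains, had log2 changes of -2.93, -3.05 and -2.93, Xylt1, which starts the chains, of -2.38, -2.55 and -2.56, and Chsy3, which extends chondroitin chains, of -2.08, -1.98 and -2.60. The hyaluronan synthase Has2 rose by 0.62, 2.16 and 1.36, and the heparan sulfotransferase Ndst1 by 0.93, 0.89 and 1.38.

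Of 32 relatives of the members, 22 were tested, and 10, 11 and 13 rose while 9, 9 and 6 fell. Tnxb, a tenascin of connective tissue, rose by 2.56, 2.0 and 5.26, and the leucine-rich proteoglycan genes Prelp, Omd and Ogn by 2.89, 2.51 and 4.2, by 2.86, 2.58 and 4.13, and by 2.94, 1.55 and 1.81. The laminin chain gene Lamb3 fell, with log2 changes of -2.27, -1.08 and -1.94. The link protein genes Hapln4 and Hapln3 fell, with log2 changes of -2.29, -2.30 and -2.2 and of -2.09, -1.88 and -1.45.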

How the data were processed

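RNA of 18 cultures was sequenced, 3 replicates in each of 6 groups. The deposited values are log2 expression values that the authors made with STAR 2.5.2, RSEM 1.3.0 and DESeq2 1.18.1 (submitters' processing notes, build GRCm38), and 29.39% of them are negative. They have the form of a regularized log transform, but the transform is not named in the sources used here. The study gives 1 approximate depth for all samples, and read totals of single libraries were not analysed here, so no counting error is given. Genes that reached 3.32 on the log2 scale in 3 or more libraries were tested with limma 3.58.1 (R 4.3.3, moderated test with trend, group means over all libraries). The 12 contrasts were adjusted by Benjamini-Hochberg over 15448 genes, with a threshold of 0.05. The scripts were tested on simulated data. By rule, members named with all their values passed the threshold without overlap between groups and were among the 5 largest rises or falls of a fate change, or the 3 largest in each direction of another contrast. Their values are also given in lines where they were not called, and those of Sdc4 were added after its values were seen. Other members are described by role. Genes of the further lists were taken from the 3 largest changes each way in any line, of which 1 gene is not reported here. Members and lists were chosen with earlier results of these data known. Exon sequence was cut into 75-base stretches to find sequence shared between genes. The labels and the study's methods differ on read length, on which these shares depend, and on library kit and RSEM version. Alternatives were another filter, pseudocount, scaling or model, a term for the replicate number (replicate block), and fits that omit 1 library each.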

Additional observations from a re-analysis of the deposited data

Results flagged for a closer look

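These members differed between lines in how far they changed from NSC to astrocyte, by a test of the interaction in limma with adjusted p under 0.05. Each value is the log2 change in the first line minus that in the second. The comparisons share libraries and are not independent of each other.

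Between tdTomato and hippocampal cells the largest differences were 1.95 for Bgn, 1.9 for Tnc and 1.59 for Fbln2, and -6.17 for Vtn, -2.95 for Matn2 and -2.25 for Ecm1. Bgn rose in both lines and Tnc and Fbln2 fell in both, so that these 3 differed in size. Matn2 fell in tdTomato cells and rose in hippocampal cells, and Vtn was called in hippocampal but not in tdTomato cells. With a pseudocount of 10 the difference of Vtn was -4.67.

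Between EYFP and hippocampal cells they were 1.55 for Lama4, 1.47 for Bgn and 1.21 for Ncan, and -4.51 for Vtn, -2.98 for Matn2 and -2.78 for Nid2. Matn2 and Nid2 changed in opposite directions in these lines.

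Between tdTomato and EYFP cells they were 1.13 for Lama1, 1.06 for Sdc3 and 1.03 for Gpc4, and -2.82 for Sparcl1, -1.67 for Vtn and -1.21 for Acan. Sparcl1 rose in both lines, from a higher level in tdTomato NSCs. The calls of Lama1, Vtn and Acan rest on values near or under the filter and were lost under some alternatives. With a pseudocount of 10 the difference of Acan was -0.54 and that of Vtn -0.61.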

How the results depend on the processing

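Over 27 alternatives, none of the 84 named differences changed direction, and 35 of 2258 repeats lost the call. All 35 were between tdTomato and EYFP cells, for Acan and Lama1 in NSCs and for the differences in change of Acan, Lama1 and Vtn. For Lama1 the difference in change was 1.01 (adjusted p = 0.051) without EYFP NSC replicate 1. That of Vtn was -0.61 (adjusted p = 0.15) with a pseudocount of 10, and had adjusted p values of 0.072 to 0.089 without any one of several libraries. That of Acan, with an adjusted p of 0.048 in the reported fit, was lost under most alternatives (0.05 to 0.11). A pseudocount of 10 moved values of weak genes by over 1.5 times, in Bgn from 3.87 to 3.16 in tdTomato cells.

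Leaving out 1 library gave 40 to 41, 43 to 44 and 34 to 37 members called for the fate change in tdTomato, EYFP and hippocampal cells. In NSCs it gave 25 to 28, 21 to 24 and 17 to 27 for tdTomato against hippocampal, EYFP against hippocampal and tdTomato against EYFP, in astrocytes 30 to 34, 31 to 34 and 11 to 18, and for differences in change 35 to 37, 31 to 35 and 15 to 23. In a fit with a replicate block the counts were 41, 43 and 37 for fate, 28, 24 and 28 in NSCs, 33, 32 and 18 in astrocytes, and 36, 36 and 20 for differences in change. Same-numbered libraries of different lines and the same fate had a mean correlation of 0.106 (0.012 to 0.313). For those of one line in both fates it was -0.023. Of the 18 libraries, 13 were closest to their own number in both other lines of the same fate. The study names the passages of the replicates, but not which number is which passage, so this remains a hint. Each line is 1 culture, and without read counts the counting error of weak genes could not be set beside their values.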
